A study of Homo sapiens with 47 samples.

Results

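SPARC and 5 genes related to it by family or by function, SMOC1, SPOCK1, SPOCK2, FSTL1 and MFAP2, were followed across bulk RNA sequencing libraries of edited human cell lines. These 6 genes were picked by symbol from the 57507 genes of the expression table. Each symbol stood in a single row, so no choice between rows was needed. SPARC was picked because it was lower in all NUP58 mutant clones of HAP1 than in wild type, and MFAP2 because it was higher. The difference between those clones and wild-type HAP1 is therefore given here as a description, without a test. SMOC1, SPOCK1, SPOCK2 and FSTL1 were picked as relatives of SPARC and not for their values.

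The study asked how human cells adapt when NUP58, an essential nuclear pore gene, is damaged but not lost. HAP1 is a near-haploid line derived from chronic myeloid leukemia. It gave 32 libraries, 4 each of wild-type cells (WT), of cells that received Cas9 without a guide RNA (EV) and of the 6 clones C1 to C6. Each clone was grown from a single cell after Cas9 cutting in NUP58, the 6 smallest viable colonies were kept, and RNA was taken at passage 1. HCT116, a colorectal carcinoma line, gave 15 libraries, 4 of a single NUP58 mutant clone and 11 of unedited controls. The HCT116 controls were 2 WT, 3 EV1 and 4 EV2 libraries, where EV1 and EV2 are control lines without a guide RNA, and 2 libraries whose title and genotype fields disagree and which were used only as unedited. The labels name no other allele or treatment in either line. Each clone is a population from 1 cell, so its own history and its NUP58 alleles cannot be told apart, and replicates of a line are libraries of that same population.

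SPARC, also called osteonectin, is a secreted calcium- and collagen-binding protein. It is the founding member of a family whose proteins combine a follistatin-like domain with a calcium-binding domain of EF hands. Such proteins are called matricellular because they sit in the extracellular matrix without building it, and they tune how cells attach to collagen and respond to growth factors. SPARC is abundant in bone, basement membranes and wound tissue, and in tumors it is often made by the stroma. SMOC1 is a basement membrane protein that antagonizes bone morphogenetic proteins (BMPs), SPOCK1 and SPOCK2 are the proteoglycans testican-1 and testican-2, and FSTL1 is a secreted glycoprotein that modulates BMP and TGF-β signaling. MFAP2 (MAGP-1) belongs to no such family. It is a small glycoprotein that decorates fibrillin microfibrils, the scaffold on which elastic fibers form.

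The genes lie on different chromosomes, apart from SPARC and SPOCK1. On GRCh38, with GENCODE 44 gene bounds, SPARC (ENSG00000113140.10) spans chr5:151661096-151686975 on the minus strand and SPOCK1 (ENSG00000152377.13) chr5:136975298-137598379 on the same strand. SMOC1 (ENSG00000198732.10) spans chr14:69854131-70032366 on the plus strand. SPOCK2 (ENSG00000107742.12) spans chr10:72059034-72089032, FSTL1 (ENSG00000163430.10) chr3:120392293-120451016 and MFAP2 (ENSG00000117122.13) chr1:16974502-16980632, all on the minus strand.

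The promoters of SPARC, FSTL1 and MFAP2 are shown because these are the genes whose levels the results turn on: SPARC and MFAP2 moved in opposite directions in the same clones, and FSTL1 is the most abundant relative of SPARC. Each is the RefSeq window (GRCh38.p14) from 250 bases before the start site to 50 after it, on the gene's own strand, and capitals mark GGAGG or its reverse complement CCTCC. GGA-rich stretches are a known feature of SPARC promoters. The windows are chr5:151686866-151687165 for SPARC, chr3:120450943-120451242 for FSTL1 and chr1:16980571-16980870 for MFAP2, the last being the RefSeq start of 2 that lies nearest to the GENCODE gene start.
SPARC: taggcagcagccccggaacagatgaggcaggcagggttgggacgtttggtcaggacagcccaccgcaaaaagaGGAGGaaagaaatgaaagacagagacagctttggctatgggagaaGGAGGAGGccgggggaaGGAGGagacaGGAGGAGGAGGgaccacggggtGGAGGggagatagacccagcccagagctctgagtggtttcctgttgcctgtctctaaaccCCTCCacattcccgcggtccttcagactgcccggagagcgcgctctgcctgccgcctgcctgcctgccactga
FSTL1: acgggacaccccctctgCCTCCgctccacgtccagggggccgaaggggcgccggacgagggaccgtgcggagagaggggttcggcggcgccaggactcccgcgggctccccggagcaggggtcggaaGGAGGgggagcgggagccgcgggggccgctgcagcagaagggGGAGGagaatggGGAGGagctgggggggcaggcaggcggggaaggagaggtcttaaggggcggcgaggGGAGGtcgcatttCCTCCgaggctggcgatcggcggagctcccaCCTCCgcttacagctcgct
MFAP2: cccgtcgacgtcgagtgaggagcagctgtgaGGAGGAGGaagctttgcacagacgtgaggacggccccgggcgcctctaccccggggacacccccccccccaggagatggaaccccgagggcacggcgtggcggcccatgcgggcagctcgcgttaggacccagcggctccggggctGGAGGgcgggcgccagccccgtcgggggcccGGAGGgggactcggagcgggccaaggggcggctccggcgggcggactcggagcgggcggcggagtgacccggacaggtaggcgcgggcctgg
The motif, with overlapping matches on both strands counted, occurred 9 times in the SPARC window, and 1.59% of 35116 promoter windows held at least as many. FSTL1 held 7 matches (4.15% of windows held as many or more) and MFAP2 held 4 (20.2%). SPOCK2 held 3 and SMOC1 held 1, while 77.4% of all windows held at least 1 and the median was 2. The windows differed more in CG dinucleotides, with 11 in SPARC, 30 in FSTL1 and 36 in MFAP2 against a median of 14. SPOCK1 was not matched in the promoter table. These counts describe letters only, and no binding or methylation was measured.

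Expression was given as FPKM, the fragments of a gene scaled to transcript length and to the fragments mapped in the library, so levels can be set side by side between genes as well as between lines. Differences were computed on log2(FPKM + 1), which understates the change of a gene whose level is near 0. Read counts were not used, so the number of fragments behind a value is unknown. Relative depth, read from the smallest nonzero steps, ran from 0.759 to 1.14 over the HAP1 libraries and from 0.773 to 0.986 over the HCT116 libraries. NUP58 itself lay between 34.3 and 50.4 FPKM in the 8 HAP1 control libraries and between 7.98 and 28.0 in the 24 clone libraries, without overlap. In HCT116 it was 25.3, 23.3 and 24.3 FPKM in clone replicates 1, 2 and 4 but 44.7 in the library labelled clone replicate 3, while the library labelled EV2 replicate 3 read 23.9 against 28.7 to 50.3 in the other 10 controls. These 2 libraries went against their labels, so the main limma differences that use HCT116 libraries are also given without those numbered 3. Marker sums, correlations and shares of overlap keep the libraries numbered 3. Of 9 epithelial markers, 6 averaged at least 1 FPKM in HCT116, and their sum was 1392 to 2372 FPKM in the controls against 48.5 to 65.8 in unedited HAP1 and 22.0 to 52.8 in its clones. HAP1 did not show blood markers in full, since GATA1, HBG1, PTPRC and SPI1 were listed at 0 in all its libraries while GATA2 and TAL1 averaged at least 1 FPKM, and the sum of the 9 blood markers was 16.1 to 38.6 FPKM in unedited HAP1 and 29.5 to 57.5 in the clones. Of 9 fibroblast markers, COL1A2, COL3A1, DCN and LUM were listed at 0 in all HAP1 libraries, and the sum of the list was 3.99 to 24.04 FPKM in unedited HAP1 and 12.4 to 45.0 in the clones. The part of these marker levels in the results was not tested. In bulk RNA, fewer cells that express a gene and less of its RNA per cell cannot be told apart.

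**Figure D1:**
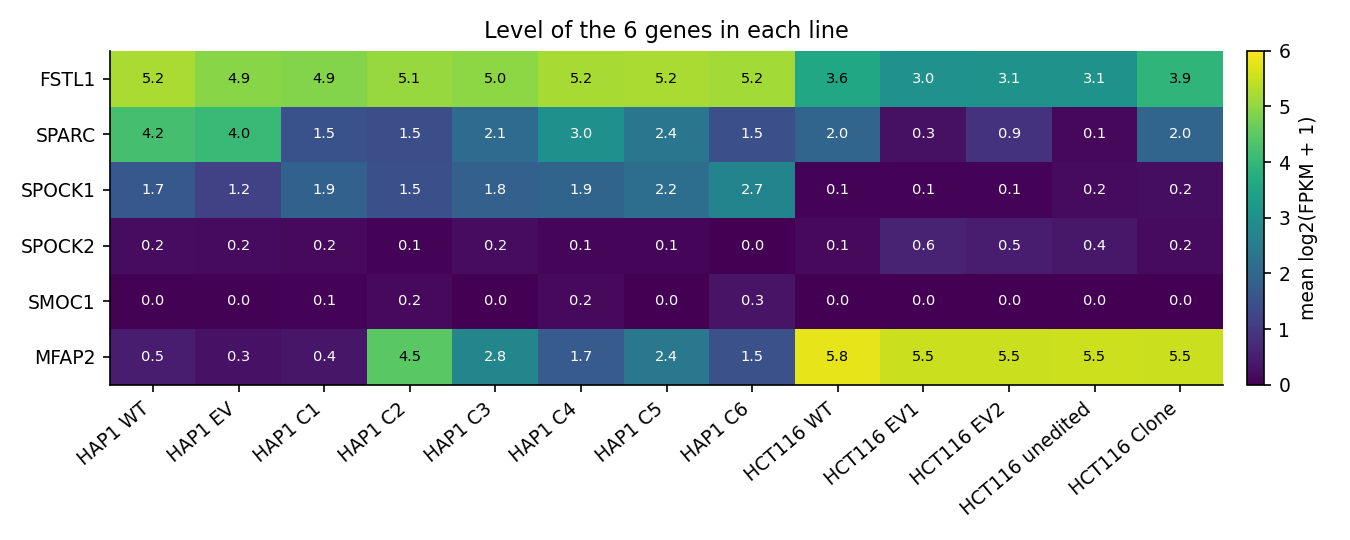
Mean log2(FPKM + 1) of the 6 genes (rows) in each HAP1 and HCT116 line (columns), with the value written in each cell and a color scale from 0 to 6. FSTL1 is high in every HAP1 line, SPARC is highest in the HAP1 controls, MFAP2 is highest in HCT116, and SPOCK2 and SMOC1 stay near 0.

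FSTL1 was the most abundant of the 6 genes in HAP1, with SPARC next in the unedited lines. In WT, FSTL1 averaged 37.4 ± 6.46 FPKM (SD, n = 4), SPARC 18.2 ± 4.33, SPOCK1 2.23 ± 0.857, MFAP2 0.405 ± 0.230, SPOCK2 0.153 ± 0.133 and SMOC1 0.0205 ± 0.0241. In the HCT116 controls the order was different: MFAP2 led with 48.1 ± 12.4 FPKM (n = 11), followed by FSTL1 with 8.22 ± 2.73 and SPARC with 1.06 ± 1.53. The means of SPOCK2 (0.363 FPKM) and SPOCK1 (0.0623 FPKM) were below 1 there, and SMOC1 was listed at 0 in all 15 HCT116 libraries.

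SPARC was lower in every clone library than in any WT library. Its FPKM was 18.4, 24.3, 15.1 and 15.1 in WT replicates 1 to 4 and 18.5, 17.6, 9.62 and 18.4 in EV. The 8 control libraries all lay above 9 FPKM, and EV replicate 3 was the lowest of them. In C1 SPARC read 2.42, 1.17, 1.53 and 2.53, in C2 1.91, 1.61, 2.02 and 1.43, and in C6 1.66, 1.74, 1.90 and 1.71. These 12 libraries were all below 3 FPKM. C3 read 4.75, 2.95, 2.76 and 2.88, C5 read 3.33, 6.07, 3.93 and 3.697, and C4 read 9.27, 3.94, 5.25 and 12.0. C4 had the highest level among the clones, and its replicate 4 was the only clone library above the lowest EV library.

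The mean of the 6 clones was 3.44 ± 2.59 FPKM (n = 24), 18.8% of the WT mean, and the fitted difference was -2.26 on the log2(FPKM + 1) scale (SE 0.19). Against EV it was -2.07. By clone, the fitted difference from WT was -2.79 in C2 (SE 0.18), -2.78 in C6 (SE 0.17), -2.73 in C1 (SE 0.21), -2.15 in C3 (SE 0.20), -1.87 in C5 (SE 0.20) and -1.24 in C4 (SE 0.30). The mean level was 9.56% of WT in C2 and 41.8% in C4. The 6 clones share the same 4 WT libraries, so these differences are not independent of each other. All 24 clone libraries lay below all 4 WT libraries for 32 of the 13180 genes that averaged at least 1 FPKM (0.243%), and with EV included for 17 (0.129%), of which SPARC was not one because of C4 replicate 4. In this comparison 6.6% of genes passed an adjusted p of 0.05, and since it chose SPARC and MFAP2, nothing is read from those shares.

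Whether the clones differ from each other is not the question that picked SPARC, but the same clone libraries served both. SPARC differed among the clones. A moderated F-test over the 24 clone libraries (limma, 13186 genes) gave F = 13.6 with an adjusted p of 0.000151. In the order of their means, C4 (7.62 FPKM), C5 (4.25) and C3 (3.34) overlapped as neighbors, and so did C1 (1.91), C6 (1.75) and C2 (1.74). C3 and C1 were the neighboring clones whose ranges did not overlap. Of the 4 members that reached the level needed for this test, SPARC, MFAP2, SPOCK1 and FSTL1, 2 passed, against 13.9% of all genes tested. The 2 were SPARC and MFAP2, picked from these same libraries, so nothing is read from that share.

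**Figure D2:**
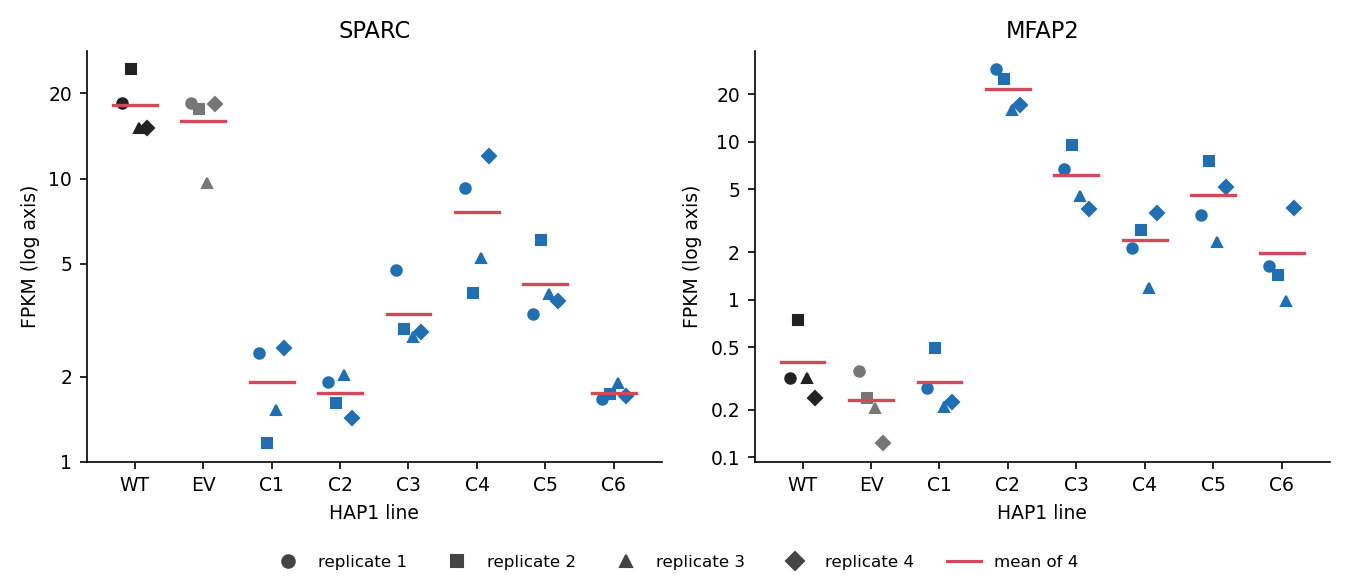
FPKM of SPARC (left) and MFAP2 (right) in each HAP1 library on log axes, by line, with marker shapes for replicate numbers and a red line at the mean of 4. SPARC falls from 18.2 in WT to between 1.74 and 7.62 in the clone means, while MFAP2 is near its WT level of 0.405 in C1 and reaches a mean of 21.8 in C2.

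MFAP2 was higher than in WT in 5 of the 6 clones and not in C1, so the description of MFAP2 as rising in the clones holds for C2 to C6 only. Its FPKM was 0.316, 0.746, 0.318 and 0.239 in WT and 0.351, 0.239, 0.204 and 0.123 in EV. C1 read 0.275, 0.496, 0.209 and 0.224, within the range of the controls. C2 stood far above the other clones with 28.8, 25.0, 16.0 and 17.2 FPKM. C3 read 6.69, 9.51, 4.54 and 3.76, and C5 read 3.46, 7.53, 2.32 and 5.18. C4 read 2.13, 2.75, 1.18 and 3.54, and C6, the lowest of the 5, read 1.62, 1.43, 0.982 and 3.81. All 20 libraries of C2 to C6 were above all 8 control libraries. These clones were set apart after the values of C1 were seen, and the share of all genes for them was not computed. All 24 clone libraries lay above all 4 WT libraries for 39 of 13180 genes (0.296%), of which MFAP2 was not one because of C1.

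The fitted difference of MFAP2 from WT was 3.99 on the log2(FPKM + 1) scale in C2 (SE 0.22), 2.29 in C3 (SE 0.26), 1.92 in C5 (SE 0.29), 1.24 in C4 (SE 0.26) and 1.00 in C6 (SE 0.28). C1 with WT averaged under 1 FPKM and was not fitted. As ratios of mean FPKM, C2 was 53.8 times WT and C6 4.84 times. Over the mean of the 6 clones the difference was 1.72 (SE 0.21). Among the clones alone, MFAP2 differed with F = 40.3 and an adjusted p of 6.88e-08 (limma, 24 libraries). MFAP2 was picked from these libraries for its rise, which C1 did not share, so this F and its p are not independent of the choice. With C1 at a mean of 0.301 FPKM, MFAP2 also reached the level filter only through the raised clones. The ranges of C2 and C3 did not overlap, while C3, C5, C4 and C6 overlapped as neighbors in the order of their means.

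SPARC and MFAP2 did not rank the clones in the same way. C2 had the lowest mean SPARC and the highest MFAP2, but C1, with SPARC at 10.5% of WT, kept MFAP2 at the control level, and C6, with SPARC at 9.61%, had the lowest MFAP2 of the 5 raised clones. C4, where SPARC stayed highest, had 2.40 ± 0.996 FPKM of MFAP2 (n = 4), close to the 1.96 ± 1.26 of C6.

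The level of NUP58 in the clones ran partly alongside SPARC. C4 had the highest NUP58 (25.5 ± 2.24 FPKM) and the highest SPARC, and C1 and C2 had the lowest NUP58 (10.1 ± 0.900 and 9.80 ± 1.604) with low SPARC. C5 and C6 were alike in NUP58 (15.6 ± 5.48 and 15.4 ± 2.37 FPKM), yet their SPARC ranges, 3.33 to 6.07 and 1.66 to 1.90, did not overlap. Over the 32 HAP1 libraries, NUP58 was the gene of 13180 whose log2(FPKM + 1) was most like that of SPARC (Pearson's r = 0.877). SPARC was picked for being low in the clones, where NUP58 was edited, so part of this likeness follows from the choice. Once line means were removed the correlation was -0.11, so the likeness lay between lines and not among replicates of a line. Over the 15 HCT116 libraries the correlation of NUP58 with SPARC had the opposite sign (r = -0.81).

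The next 4 genes most like SPARC over the same libraries were ANXA5, a calcium-dependent phospholipid-binding protein (r = 0.828), SEC11A, a subunit of the signal peptidase that processes secreted proteins (r = 0.821), BCL2L1, an inhibitor of apoptosis (r = 0.815), and MYL12B, a myosin regulatory light chain (r = 0.813). ANXA5 averaged 131 ± 11.1 FPKM in WT and 108 ± 9.64 in the clones, and its correlation with SPARC within lines was 0.61. BCL2L1 averaged 31.2 ± 2.09 in WT and 21.7 ± 2.53 in the clones, with -0.06 within lines. For MFAP2 the most similar genes were PAWR (r = 0.752), WHSC1L1 (0.706), TFAP2A (0.697), DMRTA2 (0.692) and PSD3 (0.679). PAWR, a regulator of apoptosis, was 36.7 FPKM in C2 against 24.4 ± 3.48 in WT, a far smaller range than that of MFAP2. These correlations describe 32 libraries of 8 lines that share the division into clones and controls, and carry no test.

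The genes next to SPARC and MFAP2 did not pass the test in the mean of the 6 clones. SLC36A1, an amino acid transporter 168717 bases away on the lower-coordinate side of SPARC, averaged 5.41 ± 1.13 FPKM in WT and 4.73 ± 0.990 in the clones (log2 difference -0.16, adjusted p = 0.502, limma). ATOX1, a copper chaperone 55341 bases away on the other side, differed by -0.04 (adjusted p = 0.914). MFAP2 lies 1538 bases from CROCC, a ciliary rootlet gene, which differed by -0.18 (adjusted p = 0.633), and 5326 bases from ATP13A2, a lysosomal transporter, which differed by -0.07 (adjusted p = 0.813). Within 1 Mb of SPARC 13 genes were tested, with a median log2 difference of -0.04 and a range of -0.50 to 0.26, and GPX3 alone passed. Within 1 Mb of MFAP2 19 genes had a median of -0.09 and a range of -0.45 to 0.67, and none passed. The median of all genes was -0.02. In C2, where MFAP2 was highest, its 19 tested neighbors ranged from -0.62 to 0.43.

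FSTL1 overlapped between the HAP1 clones and WT. It read 37.5, 46.4, 34.1 and 31.6 FPKM in WT and 33.6, 33.1, 26.1 and 25.9 in EV. The 24 clone libraries ran from 22.4 to 46.0 with a median of 32.7 and overlapped both controls. The fitted difference of the mean clone was -0.15 from WT (SE 0.16) and 0.17 from EV (SE 0.16), so its sign depended on the control. The clones did not differ in FSTL1 beyond their spread (F = 0.762, adjusted p = 0.831, limma), and clone means ran from 29.2 FPKM in C1 to 37.7 in C5 with overlapping neighbors throughout. Replicate 2 averaged 41.8 ± 4.51 FPKM over the 8 lines, against 30.0 to 32.4 for the other numbers.

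Of the testicans SPOCK1 and SPOCK2, SPOCK1 alone exceeded 1 FPKM in HAP1, and C6 had the most. It read 2.04, 2.38, 1.21 and 3.28 FPKM in WT and 1.27, 1.36, 1.34 and 0.954 in EV. C6 read 4.07, 10.1, 3.43 and 6.16, all above the 8 control libraries. The share of all genes set apart in this way in C6 was not computed, and 11.7% of genes passed in C6 against WT (limma). C5 read 3.13, 4.35, 3.55 and 3.08, and C2, the lowest clone, read 1.37, 2.83, 1.06 and 2.19. Means were 2.79 ± 1.33 FPKM in C1, 2.73 ± 1.14 in C3 and 3.12 ± 1.79 in C4 (n = 4 each), so that clone ranges overlapped WT except in C6. The fitted difference from WT was 1.05 in C6 (SE 0.30), 0.35 in the mean of the 6 clones (SE 0.23) and 0.84 against EV. The F-test among the clones gave F = 3.21 with an adjusted p of 0.124 (limma), which did not pass. With replicate numbers as blocks it did (F = 12.1, adjusted p = 0.00034, limma), although the 6 clones together did not meet the rule for pairing. SPOCK1 also moved with the replicate number: over 8 lines it averaged 4.30 ± 2.65 FPKM in replicate 2 and 3.32 ± 1.48 in replicate 4, against 2.12 ± 0.984 and 1.98 ± 0.984 in replicates 1 and 3.

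**Figure D3:**
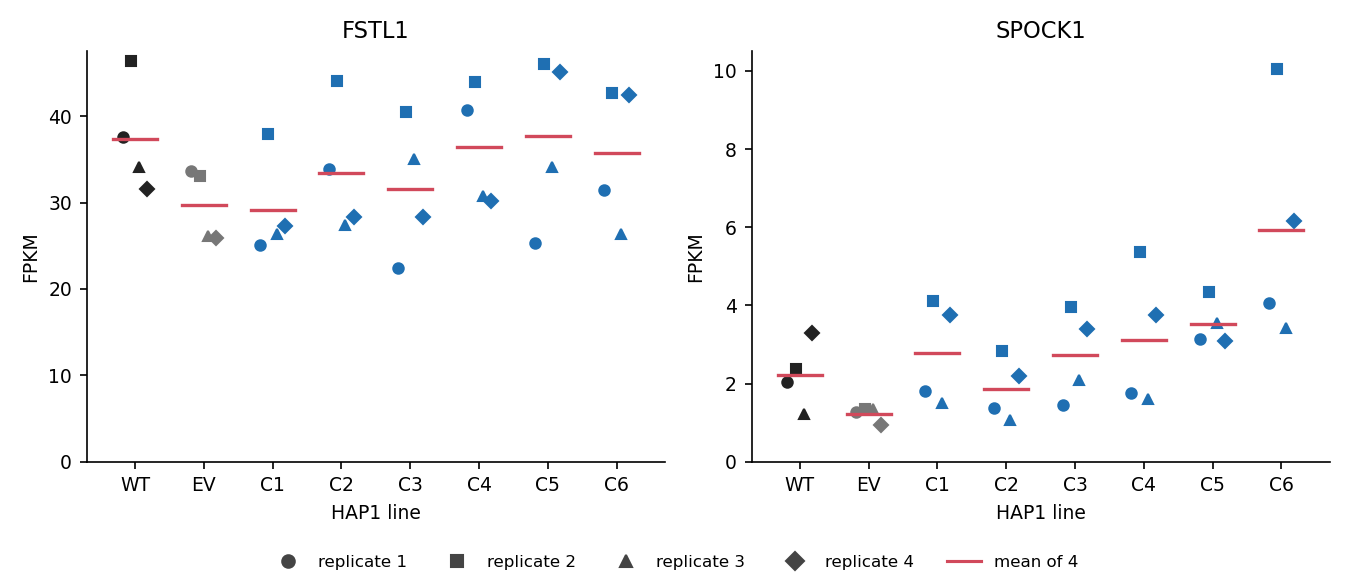
FPKM of FSTL1 (left) and SPOCK1 (right) in each HAP1 library, by line, with marker shapes for replicate numbers and a red line at the mean of 4. FSTL1 lies between 22.4 and 46.4 in all lines, and SPOCK1 is highest in C6, where its replicate 2 reaches 10.1.

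SPOCK2 and SMOC1 were near 0 throughout and failed the level filter in every comparison. SPOCK2 did not exceed 0.402 FPKM in HAP1 and was listed at 0 in 6 of the 24 clone libraries but in none of the 8 control libraries. In HAP1 its mean was 0.0152 FPKM over replicates numbered 1 and 0.164 over those numbered 4, while the means of the 8 lines ran from 0.0108 to 0.159. SMOC1 was listed above 0 in 12 of 24 clone libraries and 3 of 8 controls. C6 was the only line in which SMOC1 was above 0 in all 4 libraries, at 0.158, 0.419, 0.0742 and 0.353 FPKM, and each of these exceeded all 8 controls. The share of all genes for which this holds in C6 was not computed. C2 had the highest single value, 0.538, with 0 in its other 3 libraries. No fold change is given at such levels.

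Between EV and WT no difference in these genes passed the test. Of the 3 members that passed the filter, none had an adjusted p under 0.05 (limma, 0.038% of 13153 genes did, 0.0152% higher and 0.0228% lower). At an unadjusted p under 0.05 was SPOCK1, and once replicate numbers entered as blocks it was FSTL1 instead, which was lower in EV in all 4 pairs. SPARC differed by -0.19 (95% interval -0.69 to 0.31), FSTL1 by -0.32 (-0.64 to 0.00) and SPOCK1 by -0.50 (-0.98 to -0.01), all with an adjusted p of 1.00 after rounding. Exact two-sided permutation tests over the 8 libraries gave p = 0.543 for SPARC, 0.114 for FSTL1, 0.114 for SPOCK1, 0.2 for MFAP2, 0.743 for SPOCK2 and 1 for SMOC1, where 0.0286 is the smallest p that 4 against 4 allows. SPARC and MFAP2 were picked with these same WT libraries, so their differences and p-values here are not independent of that choice. All 4 EV libraries were below the WT mean for FSTL1, SPOCK1 and MFAP2.

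Against the pooled HCT116 controls the direction of SPARC was the opposite of that in HAP1, but not beyond the spread of the labelled groups. The clone and WT did not differ, each with a mean log2(FPKM + 1) of 1.96. That mean was 0.258 in EV1, 0.885 in EV2 and 0.127 in the libraries with conflicting labels. SPARC read 6.85, 5.69, 0.0863 and 3.02 FPKM in clone replicates 1 to 4. The controls read 4.71 and 1.66 in WT, 0.569, 0.0901 and 0 in EV1, 0.822, 0.551, 3.11 and 0 in EV2, and 0.175 and 0.0157 in the 2 libraries with conflicting labels. Clone replicates 1 and 2 were above all controls, clone replicate 3 was near 0, and the highest controls were WT replicate 1 and EV2 replicate 3. The clone mean was 3.91 ± 3.01 (n = 4) against 1.06 ± 1.53 (n = 11), a log2 difference of 1.19 (SE 0.51, 95% interval 0.11 to 2.27, adjusted p = 0.442, limma). The exact permutation p was 0.0586.

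FSTL1 was also higher in the HCT116 clone. It read 15.1, 19.7, 9.57 and 13.9 FPKM in the clone, 14.6 and 8.47 in WT, 9.03, 6.37 and 6.40 in EV1, 7.11, 5.97, 11.3 and 6.18 in EV2, and 9.06 and 5.93 in the libraries with conflicting labels. All 4 clone libraries exceeded the control mean of 8.22, and 2 exceeded every control. The log2 difference was 0.76 (SE 0.21, 95% interval 0.32 to 1.21), with an exact permutation p of 0.00440 and an adjusted p of 0.332 by limma. MFAP2, at 50.4, 54.6, 32.2 and 47.1 FPKM in the clone and 27.0 to 72.3 in the controls, overlapped fully and differed by -0.04 (95% interval -0.46 to 0.37, adjusted p = 0.955, limma). SPOCK2 was 0.122 ± 0.0234 FPKM in the clone and 0.363 ± 0.254 in the controls (exact permutation p = 0.0769, and 0.2 without the libraries numbered 3). Among those controls WT averaged 0.110. None of the 3 members tested by limma passed, and neither did any of the 12960 genes (0.0%). At an unadjusted p under 0.05 were 1342 genes, SPARC and FSTL1 among them, while 17 genes passed when each gene's own unequal variances were used without moderation.

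The libraries numbered 3 decided these calls. Within numbers 1, 2 and 4 the clone was above each control of its number for both SPARC and FSTL1. Within number 3 the order was turned, with SPARC at 0.0863 FPKM in the clone, 0 in EV1 and 3.11 in EV2, and FSTL1 at 9.57, 6.40 and 11.3. NUP58 was turned in the same pair of libraries. Without the libraries numbered 3, SPARC differed by 1.86 (SE 0.45, adjusted p = 0.0276, limma) and FSTL1 by 0.96 (SE 0.22, adjusted p = 0.0211), with exact permutation p-values of 0.00909 each over 220 arrangements. Then 2 of the 3 members passed, both higher, against 5.92% of 13000 genes passing and 3.62% passing as higher, and MFAP2 differed by 0.10 (adjusted p = 0.814). SPARC then averaged 0.955 FPKM in the 9 controls and 5.19 in the clone. It thus reached the level filter only through the clone, so its call is not read as a test. Leaving out number 3 was chosen after these values were seen, so the calls and p-values without it are not independent of that choice. Whether the labels of the pair were exchanged was not tested, and no library was moved to another group. The difference between the HAP1 and HCT116 responses of SPARC was not tested, because the HAP1 comparison chose the gene.

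**Figure D4:**
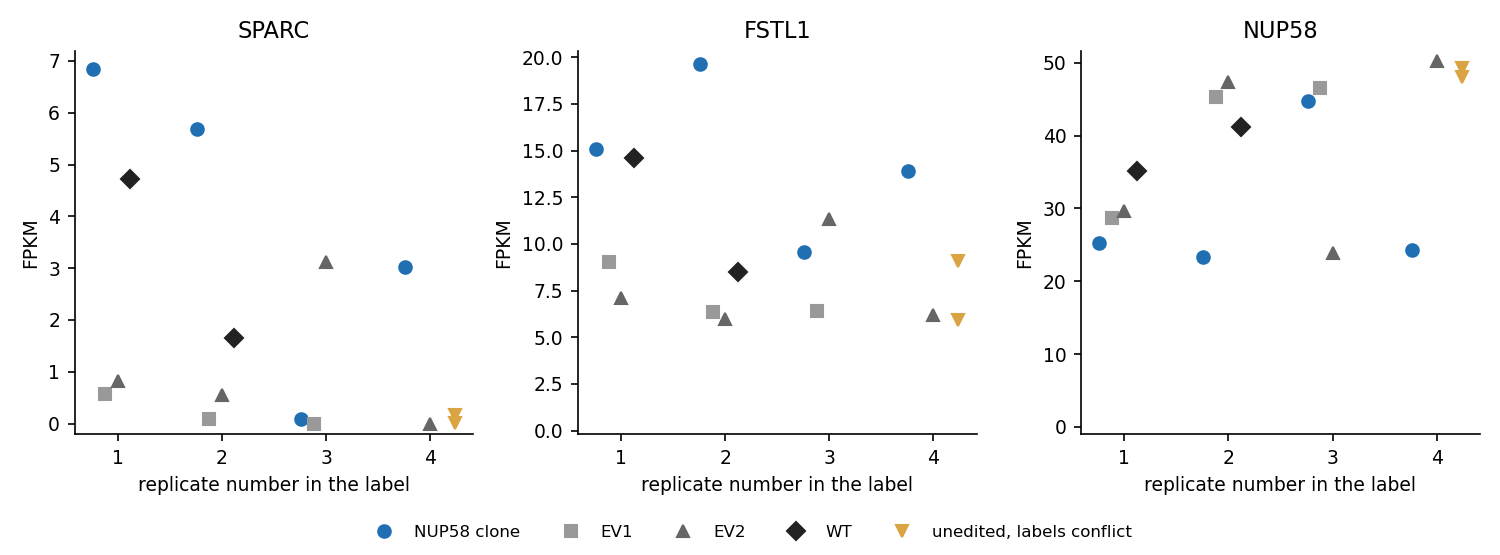
FPKM of SPARC, FSTL1 and NUP58 (panels) in the 15 HCT116 libraries by the replicate number of their label, with colors and shapes for the clone, EV1, EV2, WT and the 2 unedited libraries whose labels conflict. In numbers 1, 2 and 4 the clone is highest for SPARC and FSTL1 and lowest for NUP58, and in number 3 the library labelled EV2 takes that place.

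Unedited HAP1 and HCT116 cells differed in most of these genes. SPARC was 17.1 ± 4.16 FPKM in 8 unedited HAP1 libraries and 1.06 ± 1.53 in 11 HCT116 controls, a log2 difference of 3.37 (SE 0.30, adjusted p = 1.3e-09, limma). FSTL1 was 33.5 ± 6.53 against 8.22 ± 2.73 (1.93, adjusted p = 1.13e-10). MFAP2 was 0.317 ± 0.188 against 48.1 ± 12.4 (a difference of -5.19, SE 0.14). MFAP2 reached the level filter only through HCT116. SPARC and FSTL1 passed as higher in HAP1, in a comparison where 68.0% of 13538 genes passed, 39.5% higher and 28.5% lower in HAP1, and the median gene differed by 0.10. Without the HCT116 controls numbered 3 the differences were 3.43 for SPARC, 1.95 for FSTL1 and -5.20 for MFAP2. For SPARC, FSTL1, MFAP2 and SPOCK1 the 2 sets of libraries did not overlap, as for 32.4% of the 13538 genes. The exact permutation p was 1.32e-05 for FSTL1 and SPOCK1, the smallest that 75582 arrangements can give. SPARC and MFAP2 were picked with the HAP1 WT libraries, so this p is not given for them. The limma p of SPARC is not independent of that choice. SPOCK1, which failed the filter, was 1.73 ± 0.784 FPKM in HAP1 and 0.0623 ± 0.0766 in HCT116. SPOCK2 was higher in the pooled HCT116 controls, at 0.363 ± 0.254 against 0.142 ± 0.116 (exact permutation p = 0.0297, not adjusted), with overlap and near 0 in both. Wild-type cells went the other way, at 0.110 FPKM in HCT116 and 0.153 in HAP1. The HCT116 mean was 0.532 in EV1, 0.388 in EV2 and 0.311 in the libraries with conflicting labels. The MFAP2 level of C2, 21.8 ± 6.15 FPKM (n = 4), was the HAP1 value nearest to HCT116, where the lowest library read 27.0.

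The other relatives of SPARC were SPARCL1 (hevin), SMOC2, SPOCK3, the follistatin FST and the follistatin-like genes FSTL3, FSTL4 and FSTL5, 7 in all. In the mean of the 6 HAP1 clones 2 of them were tested and neither passed. SPARCL1, the closest relative of SPARC, was dominated by the replicate number. It read 1.87, 1.55, 26.3 and 21.6 FPKM in WT replicates 1 to 4 and 5.10, 1.87, 27.9 and 21.5 in EV. Replicates 3 and 4 were thus over 10 times replicates 1 and 2 in WT, and a like split was seen in C3 (4.47, 1.48, 25.3 and 14.2) and C4 (3.20, 0.813, 12.6 and 11.2) but not in C1 or C2. C6 was low in all 4, at 0.439, 0.290, 1.21 and 0.122. The mean clone differed from WT by -0.77 (SE 0.64, adjusted p = 0.557, limma), and C6 alone by -2.48 (SE 0.75, adjusted p = 0.0596). In HCT116 no library exceeded 0.388 FPKM of SPARCL1.

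SPOCK3 (testican-3) was raised in C6, at 2.02, 2.93, 1.89 and 3.28 FPKM against 0.178, 0.107, 0.131 and 0.365 in WT. SPOCK3 reached the level filter only through C6, so this is given as a description (log2 difference 1.55, SE 0.20). Its levels in the other 5 clones averaged 0.0651 to 0.769 FPKM. By their means, C6 thus had the highest SPOCK1, SPOCK3 and SMOC1 of the HAP1 lines together with the lowest SPARCL1, SMOC2 (0.0299 ± 0.0201 FPKM against 0.633 ± 0.551 in WT) and SPOCK2. FSTL3, an activin-binding protein, was 5.49 ± 1.33 FPKM in WT and 4.64 ± 1.07 in the clones (-0.20, adjusted p = 0.509).

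**Figure D5:**
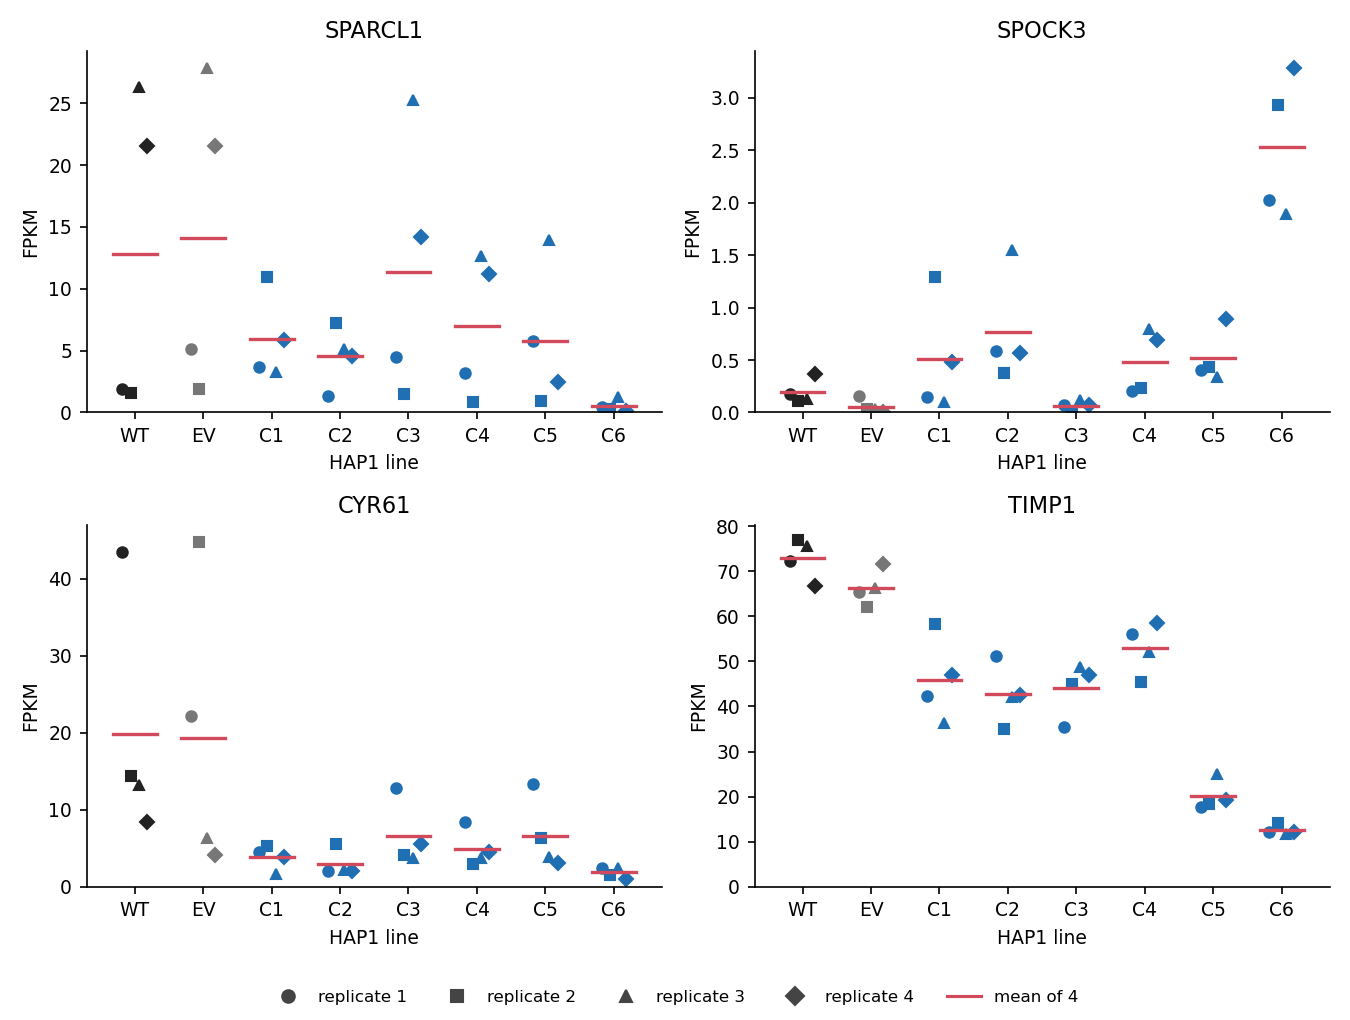
FPKM of SPARCL1, SPOCK3, CYR61 and TIMP1 (panels) in each HAP1 library, by line, with marker shapes for replicate numbers and a red line at the mean of 4. SPARCL1 splits by replicate number in WT and EV, SPOCK3 is highest in C6, and TIMP1 is below WT in all 6 clones and lowest in C6.

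Of 17 other matricellular genes (thrombospondins, tenascins, CCN proteins, osteopontin, periostin and the like), 4 were tested in the mean of the 6 clones and 1 passed. CYR61 (CCN1), a secreted integrin ligand and a target of YAP signaling, fell from 19.9 ± 15.9 FPKM in WT to 4.47 ± 3.15 in the clones (-1.85, SE 0.41, adjusted p = 0.00435, limma). Background calls in this comparison were 3.43% of genes lower and 3.17% higher. In 21 of 24 clone libraries it was below all WT libraries, although WT itself ranged from 8.42 to 43.5 and EV from 4.15 to 44.8. The median of the 4 genes was 0.07, beside -0.02 for all genes.

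Of 18 genes of SPARC partners (fibrillar and basement membrane collagens, the receptor STAB1, integrins and the growth factors PDGF and VEGF), 6 were tested and none passed, with log2 differences between -0.13 and 0.14 and a median of 0.00. Of 17 proteases and inhibitors that cut matricellular proteins or limit that cutting, 8 were tested, with a median of 0.09, and 2 passed. TIMP1, an inhibitor of matrix metalloproteinases, fell from 72.8 ± 4.60 FPKM in WT to 36.4 ± 15.9 in the clones (-1.15, SE 0.10, adjusted p = 6.6e-09, limma), and all 24 clone libraries were below all WT libraries. The clones differed from each other here too, with 12.5 ± 1.16 FPKM in C6 and 20.1 ± 3.34 in C5 against 42.7 to 53.0 in the means of the other 4. MMP16, a membrane-bound metalloproteinase, rose from 2.34 ± 0.584 to 3.32 ± 0.914 (0.36, adjusted p = 0.0429).

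Of 24 genes of microfibrils and elastic fibers, the setting in which MFAP2 works, 14 were tested and none passed in the mean of the 6 clones. Their median difference was -0.15 and their range -0.52 to 0.24, so none moved as far as MFAP2. FBN2, the most abundant fibrillin in HAP1, was 15.1 ± 3.83 FPKM in WT and 16.4 ± 3.22 in the clones (0.12, adjusted p = 0.724, limma). FBN1 was 2.05 ± 0.685 against 1.15 ± 0.523 (-0.51, adjusted p = 0.0696). It averaged 0.666 ± 0.169 FPKM in C5. In HCT116, where MFAP2 was abundant, FBN2 did not exceed 0.165 FPKM.

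Of 23 genes of BMP and TGF-β signaling, the pathways that SMOC1, FSTL1 and MFAP2 touch, 22 were tested and 3 rose in the mean of the 6 clones while none fell. SMAD7, an inhibitor of TGF-β signaling, rose from 7.93 ± 1.57 to 12.1 ± 3.55 FPKM (0.52, adjusted p = 0.0371, limma). TGFB3 rose from 1.66 ± 0.348 to 3.16 ± 1.62 (0.56, adjusted p = 0.0417) and SMAD1, a BMP effector, from 15.5 ± 1.81 to 19.8 ± 2.78 (0.33, adjusted p = 0.0116). SMAD1 averaged 19.2 ± 2.02 in EV as well, within the range of the clones. TGFB3 averaged 5.56 FPKM in C5 and 4.33 in C6, but 1.70 in C4 to 2.78 in C1 in the other clones, and 2.08 in EV. The median of the 22 genes was 0.13 beside -0.02 for all genes. By clone, 3 of these genes passed in C5 (7.55% of all genes did) and 6 in C6 (11.7%), and in C6 BMP2 rose from 2.45 ± 1.53 to 10.95 ± 2.81 FPKM (1.86, adjusted p = 0.00294).

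By clone, over the 6 lists together, 11 of 60 tested genes passed in C6, where 11.7% of all genes did. SPOCK3 is counted in both numbers although it reached the level filter only through C6, so its call is not read as a test. C5 had 7 of 57, where 7.55% of all genes passed. TIMP1 alone passed in C2, and none did in C1, C3 and C4. Of all genes 0.479% passed in C1, 0.732% in C2, 0.0911% in C3 and 0.16% in C4. In C1 to C4 the replicate numbers paired the clone with WT, and with a replicate block 3, 3, 2 and 4 list genes passed, where 1.5%, 1.23%, 0.622% and 2.43% of all genes did. CYR61 was among them in all 4 clones and TIMP1 in C1, C2 and C3. In the HCT116 clone none of the 55 list genes tested passed (limma), and 4 of 56, all higher, did without the libraries numbered 3 (BMPR2, MFAP3L, TGFB1 and CTSB), where 5.92% of all genes did. With all libraries the values of the genes named above were 228 ± 37.0 FPKM against 171 ± 39.1 for TIMP1 and 15.2 ± 9.28 against 33.3 ± 22.2 for CYR61 (adjusted p = 0.410 and 0.464, limma, and 0.0769 and 0.194 without number 3).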

How the data were processed

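Bulk RNA of 47 libraries was sequenced from Illumina TruSeq HT preparations of RNeasy-extracted RNA, from cells at about 70% confluence. The submitters' processing notes name FastQC, STAR, RSEM and GRCh38, and the study's methods give the genome as Ensembl GRCh38.p13. Tool versions are not given in the sources used here. The authors deposited 1 table of FPKM values for 57507 genes, and 67.5% of its values were 0. The depth behind the values is unknown beyond the relative depth given, so no counting interval was computed.

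Groups came from the library titles and genotype labels. The labels do not say whether replicates were separate cultures, so p-values measure the spread between these libraries. FPKM was transformed to log2(FPKM + 1), genes averaging at least 1 FPKM in the libraries of a comparison were kept, and limma 3.58.1 (R 4.3.3, empirical Bayes with a trend) was fitted over all such genes with Benjamini-Hochberg adjustment at 0.05. The 6-clone comparison used 1 fit of all 32 HAP1 libraries. Exact permutation tests on log2(FPKM + 1) went through all arrangements with numpy 2.4.6 and were two-sided. Scripts were tested on simulated data.

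The 6 genes and the 6 gene lists (106 genes in the table) were chosen with earlier results of these data known. Genes named beyond the 6 were NUP58, up to 4 called genes of each list with the largest change, the 5 genes most like SPARC and MFAP2, and the nearest tested genes. SPARCL1, SMOC2, SPOCK3, FSTL3, FBN1, FBN2, BMP2, GPX3, BMPR2, MFAP3L, TGFB1 and CTSB fall outside this rule and were chosen after their values were seen. Ensembl identifiers of 56417 genes (98.1%) matched GENCODE 44, whose bounds gave positions.

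Same-numbered libraries were taken as paired where the deviations of all 4 pairs correlated above 0.1, which held for EV and C1 to C4 against WT (0.149 to 0.747), and not for C5, C6, the 6 clones together or HCT116. Alternatives covered the pseudocount, filter, scaling, trend, replicate block, an unmoderated test with unequal variances, the control group, each clone and each library.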

Additional observations from a re-analysis of the deposited data

Results flagged for a closer look

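SPARC differed among the 6 HAP1 clones (F-test over 24 libraries, limma, adjusted p = 0.000151), and so did MFAP2 (adjusted p = 6.88e-08). These were differences between clones under the same comparison with WT, tested directly. The clone libraries also served to pick both genes, so these tests are not independent of that choice. MFAP2 reached the level filter there only through C2 to C6.

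Of 35 groups of replicates examined for a library far from the others, 2 held one, and chance gives about 1 in 20. SPARC in EV replicate 3 was 9.62 FPKM, below 17.6 to 18.5 in the other 3 EV libraries. SPARC in C3 replicate 1 was 4.75 FPKM, above 2.76 to 2.95 in the other 3 libraries of that clone.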

How the results depend on the processing

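Of 676 recomputed values, 640 kept their direction and their side of the threshold or moved by less than the replicate spread. The SPARC difference of the 6 clones from WT was -2.61 with a pseudocount of 0.1, and between -2.34 and -2.12 leaving out 1 library at a time. That of MFAP2 was 2.71 with a pseudocount of 0.1, 2.00 after scaling to TPM, 2.09 without C1 and 1.27 without C2 (1.67 to 1.83 leaving out 1 library). List genes called higher numbered 4, but 1 without the filter, 9 with the replicate block, 1 by the unmoderated test, 8 against EV, 13 against WT and EV, 2 without C1, 1 without C5 and 2 without C6. Leaving out 1 library gave 1 to 4, with 1 or 2 without C1 replicate 3, C3 replicate 4, C4 replicate 1 or any single WT replicate. List genes called lower numbered 2, but 3 with the block, FBN1 joining, 1 by the unmoderated test, 5 against WT and EV, and 1 to 3 leaving out 1 library (1 without WT replicate 1). TIMP1 passed in 43 of 43 settings, CYR61 in 41, SMAD1 in 39, SMAD7 in 36, TGFB3 in 30 and MMP16 in 26.

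In HCT116, 2 members passed without the libraries numbered 3 and 0 to 2 leaving out 1 library, the 2 being reached without clone replicate 3 (SPARC 1.80, adjusted p = 0.0443, and FSTL1 0.94, adjusted p = 0.0282, limma). Without number 3, SPARC reached the level filter only through the clone. With 9 controls whose labels agree, SPARC differed by 1.04 (adjusted p = 0.615) and FSTL1 by 0.74 (adjusted p = 0.492). MFAP2 there ran from -0.13 to 0.12 leaving out 1 library, and turned from -0.04 to 0.12 without clone replicate 3, 0.019 without EV2 replicate 1 and 0.10 without number 3. SPARC in EV against WT ran from -0.27 to 0.020 leaving out 1 library, and turned from -0.19 to 0.020 without EV replicate 3. The cause of these changes was not tested. Between unedited cell lines, SPARC ranged from 2.28 with wild-type libraries alone to 5.03 with a pseudocount of 0.1. Leaving out the libraries numbered 3 was chosen after seeing the data, here and in the HCT116 clone comparison, and changed no call here.

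With the replicate block, SPOCK1 passed among the clones (F = 12.1, adjusted p = 0.00034, limma), genes called there rose from 1830 to 2998, and those called in the 6 clones against WT from 870 to 1659. Of same-numbered clone pairs, 21 of 24 correlated above 0.1, and 17 of 24 clone libraries correlated best with their own number, a hint from the data and not from the design. SPARCL1 in C6 had an adjusted p of 0.0336 with the block. The block changed no member's call in EV against WT (adjusted p 0.643 to 0.856, limma) or in HCT116. The depth behind the FPKM values is unknown.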
